A study of Homo sapiens with 7 samples.

Results

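The genes described here are subunits of the transcription factor NF-kB, the proteins that hold it back or switch it on, and cytokines, chemokines and other genes known to be induced by it. They were taken from a list of 42 symbols, and 38 of the 17958 genes measured belonged to it. A gene was counted as measured where the platform's annotation gave a transcript cluster exactly 1 symbol, and the brightest such cluster by its mean over the 7 arrays stood for the gene. BIRC3, TRAF2, CSF2 and CXCL1 were not analysed here, since this rule found no cluster for them. The samples were RNA of SKOV3, a human ovarian carcinoma cell line, on Affymetrix Human Gene 1.1 ST arrays. They comprise 2 arrays of stable CtBP2 knockdown clones, 3 of clones labelled CtBP1 knockdown and 2 of scramble control clones. All 7 were made by lentiviral infection and kept in puromycin. CtBP1 and CtBP2 are related co-repressors, which DNA-bound factors recruit together with histone-modifying enzymes. The comparisons ask which genes depend on each of them and where they differ.

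NF-kB is a dimer of Rel-domain proteins. In resting cells it is held in the cytoplasm by inhibitor proteins such as that encoded by NFKBIA. Signals from receptors for interleukin-1, tumour necrosis factor and microbial products activate the IKK kinase complex, which marks the inhibitors for degradation and frees the dimer to enter the nucleus. Its targets include the genes of its own inhibitors, which end the response, and secreted cytokines and chemokines such as IL6 and CXCL8, which ovarian carcinoma cells are known to release.

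Values are log2 signals, on which a difference of 1 is a doubling, and levels were not compared between genes. CTBP2 had 4.64 and 4.22 in CtBP2 knockdown, and 5.70 and 6.14 in scramble control. CTBP1 had 5.11, 6.13 and 6.13 on the arrays labelled CtBP1 knockdown, against 5.69 and 6.37 in scramble control, so its signal did not separate them and they are called by their label throughout. Scramble control 1 stood apart: it correlated with the other arrays across genes at 0.926 to 0.941, and no other pair was below 0.971. Its signals were also less spread, with lower and upper quartiles of 2.32 and 4.52. On the other arrays the quartiles were 2.04 to 2.11 and 4.96 to 5.20. A list of 20 dividing-cell genes had a median deviation from each gene's mean of -1.58 on that array and 0.53 on scramble control 2, against -0.07 to 0.46 on the knockdown arrays, and its part in the results was not tested. The leukocyte marker PTPRC lay between 1.505 and 1.73 on all arrays. The 12 measured markers of that list summed to 27.06 and 27.21 in CtBP2 knockdown, 26.76 to 28.44 in the arrays labelled CtBP1 knockdown, and 31.02 and 27.70 in scramble control. CD68, which many tumour cells also express, was the one bright marker of them, at 5.90 to 7.11. Of 11 markers of this cell line and of epithelium, ERBB2 (8.52 to 9.58), KRT8 (8.35 to 9.35) and KRT18 (7.36 to 8.10) varied least among the bright ones. KRT7 (5.65 to 9.65), PAX8 (6.41 to 8.65) and EPCAM (4.59 to 6.53) varied more, KRT19, MUC16 and MSLN lay between 2.92 and 7.20, and CDH1 (2.36 to 3.27) and WT1 (1.92 to 2.21) were dim. For CtBP2 knockdown the differences from scramble were 2.54 ± 0.75 for KRT7, 1.27 ± 0.32 for EPCAM and 0.58 ± 0.24 for ERBB2. For the arrays labelled CtBP1 knockdown they were 1.35 ± 0.36 for PAX8, 0.80 ± 0.29 for EPCAM and 0.61 ± 0.22 for ERBB2. Of the 11 markers, 3 and 4 had differences below 0, in that order, and none passed the test. In these bulk samples fewer expressing cells and less RNA per cell cannot be told apart. The labels call the samples clones and do not say that they came from separate cultures. The p-values therefore cover the spread of these arrays alone, which may be technical.

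RefSeq promoters of GRCh38.p14 were held by the reference table for 29 of the 38 genes and not for RELB, NFKBIE, IKBKB, LIF, CSF1, CSF3, CXCL16, CCL2 and CCL5. The 250 bases before each gene start were searched on both strands for 2 overlapping motifs of the NF-kB type. The longer was GGG, any 2 letters, then TTTCC, and the shorter was GGANNTTCC. At least 1 of them was present in 14 of the 29 promoters, while 5.04% of all 27305 promoters held one. The longer motif was in 12 of the 29 against 1.73% of all promoters, and the shorter in 13 of the 29 against 3.88%. The genes are on the list because NF-kB is known to act on many of them, and a match is a description of the letters only. The promoters without a match included those of NFKB2, TNF and IL6ST, which are also described below. The last 110 bases before the start are shown for 7 of the 14 genes with a match. They are given 5′ to 3′ on the gene's strand, with motif matches in capitals. IL6 is at chr7:22727090-22727199 (+), IL32 at chr16:3065293-3065402 (+), NFKB1 at chr4:102501249-102501358 (+), NFKBIA at chr14:35404750-35404859 (-), TNFAIP3 at chr6:137867149-137867258 (+), CXCL8 at chr4:73740459-73740568 (+) and CCL20 at chr2:227813732-227813841 (+).
IL6: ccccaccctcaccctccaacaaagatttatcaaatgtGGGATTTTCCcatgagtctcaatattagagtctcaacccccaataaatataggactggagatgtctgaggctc
IL32: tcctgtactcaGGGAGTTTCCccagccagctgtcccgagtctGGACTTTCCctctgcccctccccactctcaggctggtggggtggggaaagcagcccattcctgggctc
NFKB1: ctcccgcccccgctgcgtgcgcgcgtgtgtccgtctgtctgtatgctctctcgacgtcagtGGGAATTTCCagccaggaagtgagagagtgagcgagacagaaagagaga
NFKBIA: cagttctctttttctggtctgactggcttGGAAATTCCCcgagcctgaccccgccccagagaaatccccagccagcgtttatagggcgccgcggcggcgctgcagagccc
TNFAIP3: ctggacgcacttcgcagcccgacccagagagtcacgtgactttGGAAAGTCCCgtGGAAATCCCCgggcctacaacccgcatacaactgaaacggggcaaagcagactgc
CXCL8: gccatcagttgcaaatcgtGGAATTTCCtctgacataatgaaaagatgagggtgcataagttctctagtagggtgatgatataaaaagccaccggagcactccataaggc
CCL20: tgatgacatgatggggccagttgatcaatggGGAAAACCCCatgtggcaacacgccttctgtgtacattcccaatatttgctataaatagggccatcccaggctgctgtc

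No gene of the list passed the test in any comparison. Of the 7 measured cytokine and growth factor genes, IL6, LIF, IL32 and TNF lay above both scramble arrays in both knockdowns, CSF3 lay below both, and CSF1 and IL11 overlapped with scramble. Of the 5 subunit genes, 4 lay above both scramble arrays in CtBP2 knockdown and RELA below both, where 19.3% and 21.7% of all genes did. In the arrays labelled CtBP1 knockdown 2 lay above both, where 6.76% of all genes did. The median difference of the subunits was 0.71 and 0.32, and that of the cytokines 0.64 and 0.90. For CtBP2 knockdown against scramble control, limma called 0 of the 38 at an adjusted p under 0.05, against 0.00557% of all genes (1 gene, not of this list). At an unadjusted p under 0.05, 8 of the 38 were higher and 0 lower, where 7.19% and 2.98% of all genes were. A log2 difference of 1 or more was reached upwards by 7 of the 38, against 4.22% of all genes, and downwards by 0, against 0.768%. The groups did not overlap for 11 genes higher and 4 lower, against 19.3% and 21.7% of all genes. With the arrays labelled CtBP1 knockdown set against scramble, limma called 0 of the 38 and 0.0% of all genes. Here 5 were higher and 1 lower at an unadjusted p under 0.05, where 2.87% and 1.92% of all genes were. By 1 or more, 5 of the 38 were higher and 0 lower, against 1.88% and 0.49% of all genes. Groups were apart for 7 genes higher and 1 lower, where 6.76% and 7.59% of all genes were. The median difference of the 38 genes was 0.28 for CtBP2 knockdown and 0.16 for the arrays labelled CtBP1 knockdown, while over all genes it was -0.02 and -0.0047. Both comparisons share the scramble arrays, and 29 of the 38 differences were above 0 in each, against 47.2% and 49.1% of all genes. Without scramble control 1 the medians were 0.48 and 0.33, and without scramble control 2 they were 0.18 and -0.08. On all 5 knockdown arrays NFKB1, NFKB2, IL6, LIF, IL32 and TNF lay above both scramble arrays, which is 6 of the 38 against 3.98% of all genes, and CSF3 alone lay below both, against 4.97%. The list was chosen with earlier results of these data known and was not matched to all genes for level. Of the 38 genes, 25 had a mean level above that of the median gene, 3.25. The shares of all genes given here are therefore a description and not a test.

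**Figure D1:**
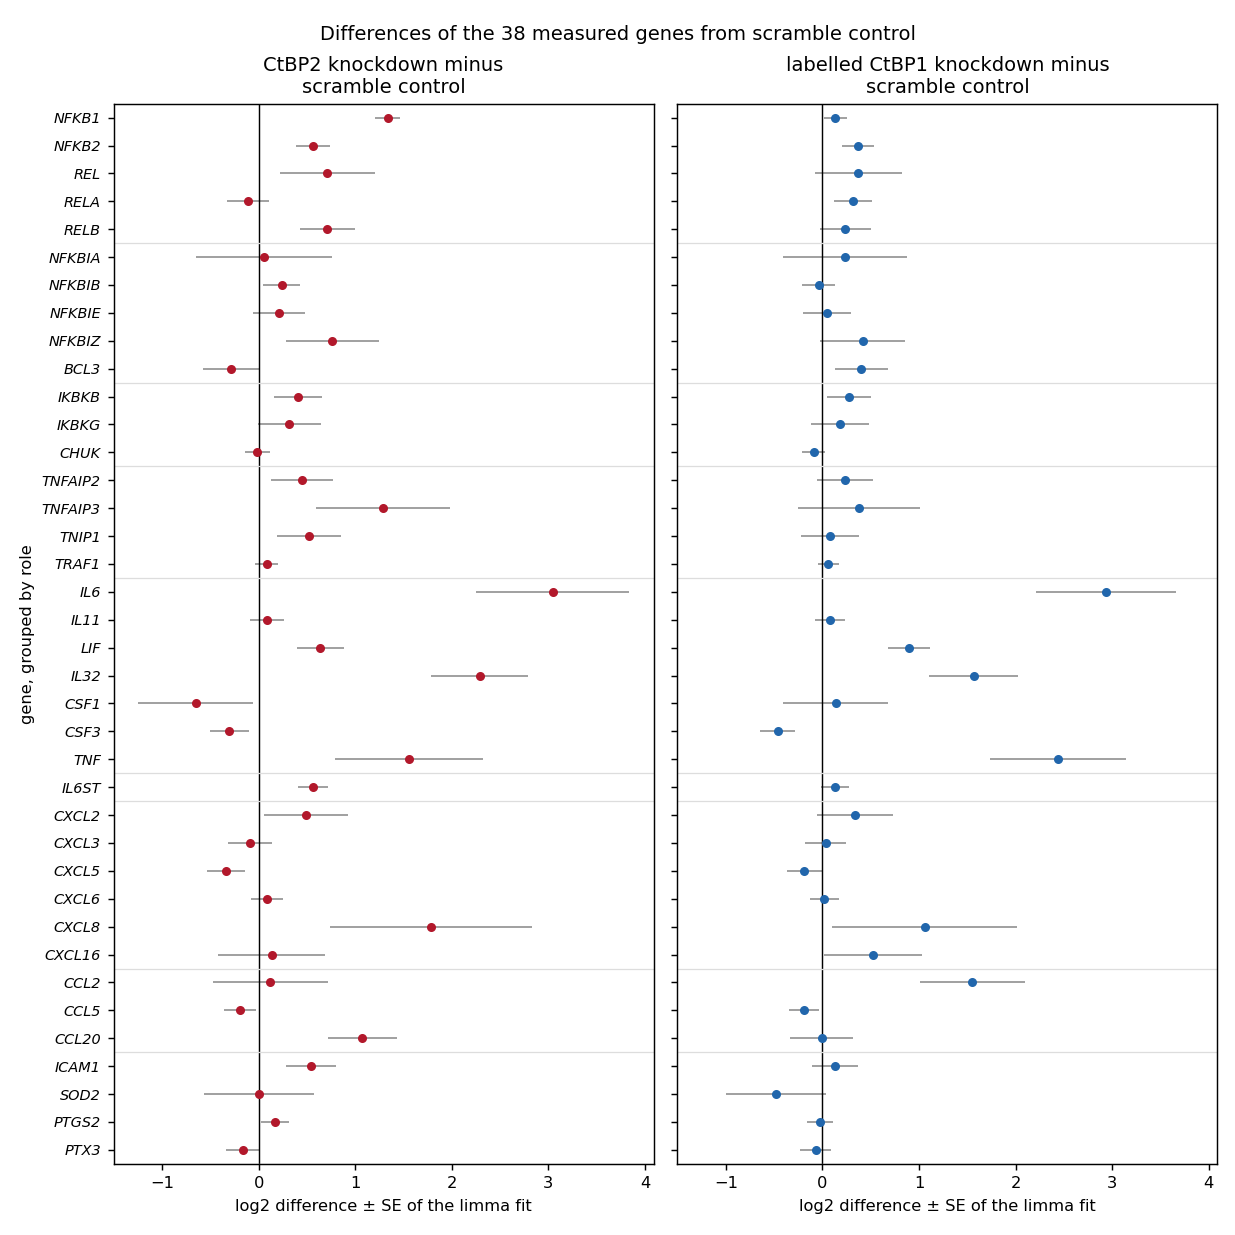
Log2 difference from scramble control of the 38 measured genes (horizontal axis, log2 units), for CtBP2 knockdown on the left and the arrays labelled CtBP1 knockdown on the right. Points are fitted differences and bars are SE of the limma fit, with genes grouped by role. IL6 lies farthest to the right in both panels, at 3.04 and 2.94, and NFKB1 differs between the panels (1.34 and 0.13).

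Among the 5 subunit genes, NFKB1 stood out in CtBP2 knockdown. NFKB1, which encodes a precursor that is cut to a DNA-binding subunit, had 6.16 and 6.12 in CtBP2 knockdown, 5.08, 4.85 and 4.89 in the arrays labelled CtBP1 knockdown, and 4.77 and 4.84 in scramble control. Both CtBP2 knockdown arrays were above all 5 others. CtBP2 knockdown and scramble control differed by 1.34 ± 0.13 (SE of limma's fit, 2 arrays against 2), or 2.52-fold, at an unadjusted p of 5.12e-05 and an adjusted p of 0.153. NFKB1 differed by 1.30 without scramble control 1 and by 1.37 without scramble control 2, where the outlying array was the lone control. The difference stayed between 0.98 and 1.37 under all alternatives. On the arrays labelled CtBP1 knockdown NFKB1 differed from scramble by 0.13 ± 0.12 (3 arrays against 2).

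NFKB2, the related precursor of the non-canonical branch, had 5.37 and 4.92 in CtBP2 knockdown, 4.86, 5.05 and 4.93 in the arrays labelled CtBP1 knockdown, and 4.54 and 4.62 in scramble control. The knockdown arrays overlapped each other and lay above both controls. Its differences from scramble were 0.56 ± 0.18 for CtBP2 knockdown and 0.37 ± 0.16 for the arrays labelled CtBP1 knockdown (adjusted p = 0.422 and 0.734, limma). RELB, the partner of the NFKB2 product, had 4.21 and 3.66 in CtBP2 knockdown, 3.52, 3.38 and 3.49 in the arrays labelled CtBP1 knockdown, and 3.58 and 2.87 in scramble control, and CtBP2 knockdown lay just above scramble. The difference was 0.71 ± 0.28 (adjusted p = 0.488, limma). RELB differed by 1.07 without scramble control 1 and by 0.35 without scramble control 2. RELA, the subunit that carries the main activation domain, had 5.44 and 5.32 in CtBP2 knockdown, 5.44, 6.06 and 5.93 in the arrays labelled CtBP1 knockdown, and 5.52 and 5.46 in scramble control. CtBP2 knockdown lay just below scramble. RELA differed by -0.11 ± 0.22 for CtBP2 knockdown and by 0.32 ± 0.20 for the arrays labelled CtBP1 knockdown. REL ranged from 5.39 to 5.71 in CtBP2 knockdown, from 4.47 to 5.69 in the arrays labelled CtBP1 knockdown and from 4.34 to 5.34 in scramble control, and its differences were 0.71 ± 0.49 and 0.37 ± 0.45. The CtBP2 knockdown values lay just above the higher control.

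Of the 5 genes of inhibitors and inhibitor-like proteins, none was separated from scramble in either comparison. Over all genes, 19.3% were apart upwards and 21.7% downwards for CtBP2 knockdown, and 6.76% and 7.59% for the arrays labelled CtBP1 knockdown. NFKBIA, the main inhibitor and itself a rapid NF-kB target, had 7.60 and 7.64 in CtBP2 knockdown, 7.11, 8.09 and 8.20 in the arrays labelled CtBP1 knockdown, and 8.62 and 6.52 in scramble control. Every knockdown array lay between the 2 controls. The differences were 0.05 ± 0.71 and 0.23 ± 0.64. Both turned with the control used, to 1.10 and 1.28 without scramble control 1 and to -1.00 and -0.82 without scramble control 2. NFKBIZ, an inducible nuclear co-regulator needed for IL6 induction in mouse macrophages, had 4.67 and 3.54 in CtBP2 knockdown, and 3.87 and 2.82 in scramble, and the groups overlapped. BCL3, a nuclear partner of the NFKB1 and NFKB2 products, had 6.22 and 5.72 in CtBP2 knockdown, 6.90, 6.18 and 6.87 in the arrays labelled CtBP1 knockdown, and 6.22 and 6.28 in scramble control. NFKBIB and NFKBIE, further cytoplasmic inhibitors, differed by 0.24 and 0.21 for CtBP2 knockdown and by -0.04 and 0.04 for the arrays labelled CtBP1 knockdown.

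The IKK genes IKBKB and CHUK, which encode its kinases, and IKBKG, its regulatory subunit, differed by 0.41, -0.01 and 0.32 for CtBP2 knockdown and by 0.27, -0.09 and 0.18 for the arrays labelled CtBP1 knockdown. IKBKB was at 4.71 and 4.48 in CtBP2 knockdown, at 4.45 to 4.48 in the arrays labelled CtBP1 knockdown, and at 3.81 and 4.56 in scramble control. Thus scramble control 1 alone was low. Among regulators, TNFAIP3, an enzyme that removes ubiquitin chains and ends the response, had 7.02 and 5.70 in CtBP2 knockdown, 5.18, 5.87 and 5.32 in the arrays labelled CtBP1 knockdown, and 5.99 and 4.16 in scramble control. The groups overlapped, and the differences were 1.29 ± 0.69 and 0.38 ± 0.63. Without scramble control 1 they were 2.20 and 1.30, and without scramble control 2 they were 0.37 and -0.53, so the direction of the second turned. TNIP1, which works with TNFAIP3, and TNFAIP2, a target induced by tumour necrosis factor, differed by 0.52 and 0.45 for CtBP2 knockdown and by 0.08 and 0.24 for the arrays labelled CtBP1 knockdown. TRAF1, a receptor adaptor, was dim on all arrays (1.59 to 1.75).

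IL6 had the largest difference from scramble of the 38 genes in both comparisons. IL6, an inflammatory cytokine that activates STAT3, had 7.27 and 5.38 in CtBP2 knockdown, 6.01, 7.27 and 5.38 in the arrays labelled CtBP1 knockdown, and 3.13 and 3.43 in scramble control. All 5 knockdown arrays were above both controls without overlap, while arrays of the same knockdown differed among themselves by up to 1.90. For CtBP2 knockdown the difference was 3.04 ± 0.79, or 8.24-fold, at an adjusted p of 0.357 and an unadjusted p of 0.00847 (limma). This was rank 13 from the top of 17958 genes, with ranks of 6 to 115 over the alternatives, and the difference was 1.66 with the mean of its 2 clusters and 2.09 without CtBP2 knockdown array 1. For the arrays labelled CtBP1 knockdown the IL6 difference was 2.94 ± 0.72, or 7.66-fold, at an adjusted p of 0.734 and an unadjusted p of 0.00658. That was rank 1, with ranks of 1 to 45 over the alternatives, and the difference was 1.61 with the mean of its 2 clusters. The dimmer IL6 cluster ran from 1.48 to 2.00. Without scramble control 1 the IL6 differences were 2.90 and 2.79, and without scramble control 2 they were 3.19 and 3.08.

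IL32, a cytokine induced by tumour necrosis factor, had 6.39 and 5.56 in CtBP2 knockdown, 4.57, 5.82 and 5.37 in the arrays labelled CtBP1 knockdown, and 4.09 and 3.29 in scramble control. All knockdown arrays were above both controls. The differences were 2.29 ± 0.50 for CtBP2 knockdown (adjusted p = 0.306, limma), or 4.88-fold, and 1.56 ± 0.46 for the arrays labelled CtBP1 knockdown (adjusted p = 0.734, limma). TNF, the gene of tumour necrosis factor, an activator and target of the pathway, had 5.20 and 4.93 in CtBP2 knockdown, 4.998, 6.73 and 6.10 in the arrays labelled CtBP1 knockdown, and 4.48 and 2.53 in scramble control. The groups did not overlap, but the controls differed by 1.95 from each other. TNF differed by 1.56 ± 0.77 for CtBP2 knockdown and by 2.44 ± 0.70 for the arrays labelled CtBP1 knockdown (adjusted p = 0.527 and 0.734, limma). Without scramble control 1 these were 2.54 and 3.41, and without scramble control 2 they were 0.58 and 1.46.

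LIF, a cytokine of the IL6 family, had 3.96 and 3.91 in CtBP2 knockdown, 3.84, 4.23 and 4.51 in the arrays labelled CtBP1 knockdown, and 3.47 and 3.13 in scramble control. Its differences were 0.64 ± 0.24 and 0.90 ± 0.22 (adjusted p = 0.469 and 0.734, limma). The direction depended on the cluster chosen: the dimmer LIF cluster gave -0.65 and -0.62, and had 3.59 on scramble control 1 against 1.97 to 2.30 on the 6 others. CSF3, a growth factor of neutrophils, was the one cytokine below both controls on all knockdown arrays, with 3.18 and 3.14 in CtBP2 knockdown, 2.82, 3.02 and 3.15 in the arrays labelled CtBP1 knockdown, and 3.70 and 3.22 in scramble control. Its differences were -0.30 ± 0.20 and -0.46 ± 0.18. Without scramble control 2 the second was -0.70, and without scramble control 1 it was -0.22. CSF1, a macrophage growth factor, was bright but overlapped, at 6.64 and 5.92 in CtBP2 knockdown, 6.22, 7.62 and 7.36 in the arrays labelled CtBP1 knockdown, and 7.52 and 6.35 in scramble control. IL11, another cytokine of the IL6 family, was dim and lay between 1.89 and 2.35 on all arrays.

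IL6ST, the signalling receptor chain shared by IL6, IL11 and LIF, had 7.71 and 7.81 in CtBP2 knockdown, 7.47, 7.19 and 7.33 in the arrays labelled CtBP1 knockdown, and 7.07 and 7.33 in scramble control. Both CtBP2 knockdown arrays were above all others. The difference from scramble was 0.56 ± 0.16 for CtBP2 knockdown (adjusted p = 0.375, limma), or 1.48-fold, and 0.13 ± 0.14 for the arrays labelled CtBP1 knockdown. Without scramble control 2 the first was 0.69, and without scramble control 1 it was 0.43.

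**Figure D2:**
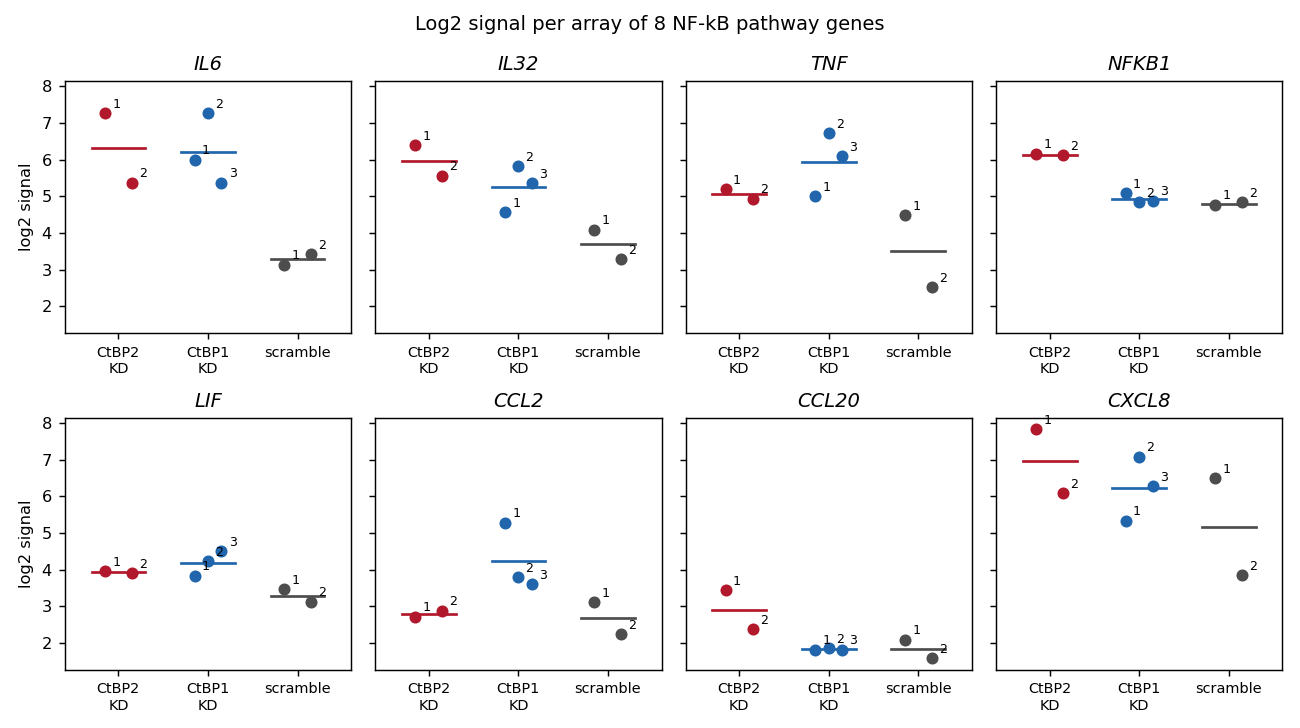
Log2 signal (vertical axis) of 8 genes on each array, with CtBP2 knockdown (KD), the arrays labelled CtBP1 knockdown and scramble control from left to right. Points are arrays with their replicate number and lines are group means. IL6, IL32, TNF and LIF lie above both scramble arrays on all knockdown arrays, and the CXCL8 groups overlap. NFKB1 is high on CtBP2 knockdown arrays alone. CCL20, which is dim, is highest on CtBP2 knockdown arrays, at 3.44 and 2.38 against at most 2.10 on the others.

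Among the 9 chemokines none passed the test, and differences pointed both ways. CXCL8, the main attractant of neutrophils, had 7.84 and 6.08 in CtBP2 knockdown, 5.34, 7.08 and 6.28 in the arrays labelled CtBP1 knockdown, and 6.49 and 3.85 in scramble control. The groups overlapped and the controls were 2.64 apart, so the differences of 1.79 ± 1.05 and 1.06 ± 0.96 had adjusted p of 0.540 and 0.753 (limma). Without scramble control 1 they were 3.11 and 2.38, and without scramble control 2 they were 0.47 and -0.26, so the second turned its direction. CCL20, the ligand of the receptor CCR6, was dim by its mean level. In scramble control it had 2.10 and 1.59. It had 3.44 and 2.38 in CtBP2 knockdown and 1.82, 1.86 and 1.82 in the arrays labelled CtBP1 knockdown. Its difference from scramble was 1.07 ± 0.36 for CtBP2 knockdown (adjusted p = 0.432, limma) and -0.01 ± 0.33 for the arrays labelled CtBP1 knockdown. Without CtBP2 knockdown array 1 the first was 0.54, and without array 2 it was 1.60. CCL2, a monocyte attractant, was highest in the arrays labelled CtBP1 knockdown, with 2.72 and 2.89 in CtBP2 knockdown, 5.29, 3.80 and 3.61 in the arrays labelled CtBP1 knockdown, and 3.12 and 2.25 in scramble control. CCL2 differed from scramble by 0.12 ± 0.60 for CtBP2 knockdown and by 1.55 ± 0.55 for the arrays labelled CtBP1 knockdown (adjusted p = 0.734, limma), and the second value was 1.02 without array 1 of that group.

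The other chemokines had smaller differences. CXCL2, a neutrophil attractant, had 4.94 and 4.27 in CtBP2 knockdown, 3.94, 5.15 and 4.27 in the arrays labelled CtBP1 knockdown, and 4.27 and 3.95 in scramble control. CXCL3, CXCL5 and CXCL6, further neutrophil attractants, differed by -0.09, -0.34 and 0.09 for CtBP2 knockdown and by 0.03, -0.19 and 0.02 for the arrays labelled CtBP1 knockdown. CXCL2 and CXCL3 have similar sequences, as do CXCL5 and CXCL6, so a signal may mix related genes. CXCL1 had no cluster of its own. CXCL1 and CXCL2 each had 1 cluster shared with another symbol, which was left out. CXCL16, a membrane-bound chemokine, ranged from 2.84 to 4.64 among the arrays labelled CtBP1 knockdown, more than its difference of 0.53 from scramble. CCL5, an attractant of T cells, lay between 1.64 and 2.08 on all arrays.

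Of 4 other inducible genes, ICAM1, an adhesion molecule for leukocytes, had 2.86 and 2.24 in CtBP2 knockdown, 1.92, 2.24 and 2.24 in the arrays labelled CtBP1 knockdown, and 2.20 and 1.81 in scramble control. It differed from scramble by 0.55 ± 0.26 for CtBP2 knockdown. SOD2, the mitochondrial superoxide dismutase, had 7.02 and 5.87 in CtBP2 knockdown, 5.88, 6.17 and 5.81 in the arrays labelled CtBP1 knockdown, and 7.19 and 5.69 in scramble control, with differences of 0.00 ± 0.57 and -0.48 ± 0.52. Without scramble control 1 these were 0.76 and 0.27, and without scramble control 2 they were -0.75 and -1.24. PTGS2, the inducible cyclooxygenase, and PTX3, a secreted pattern recognition protein, were dim on every array (1.69 to 2.09 and 1.74 to 2.10). With CHUK, TRAF1, CXCL6 and CCL5 they are the 6 of the 38 genes whose mean level was in the lowest 25% of all genes.

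**Figure D3:**
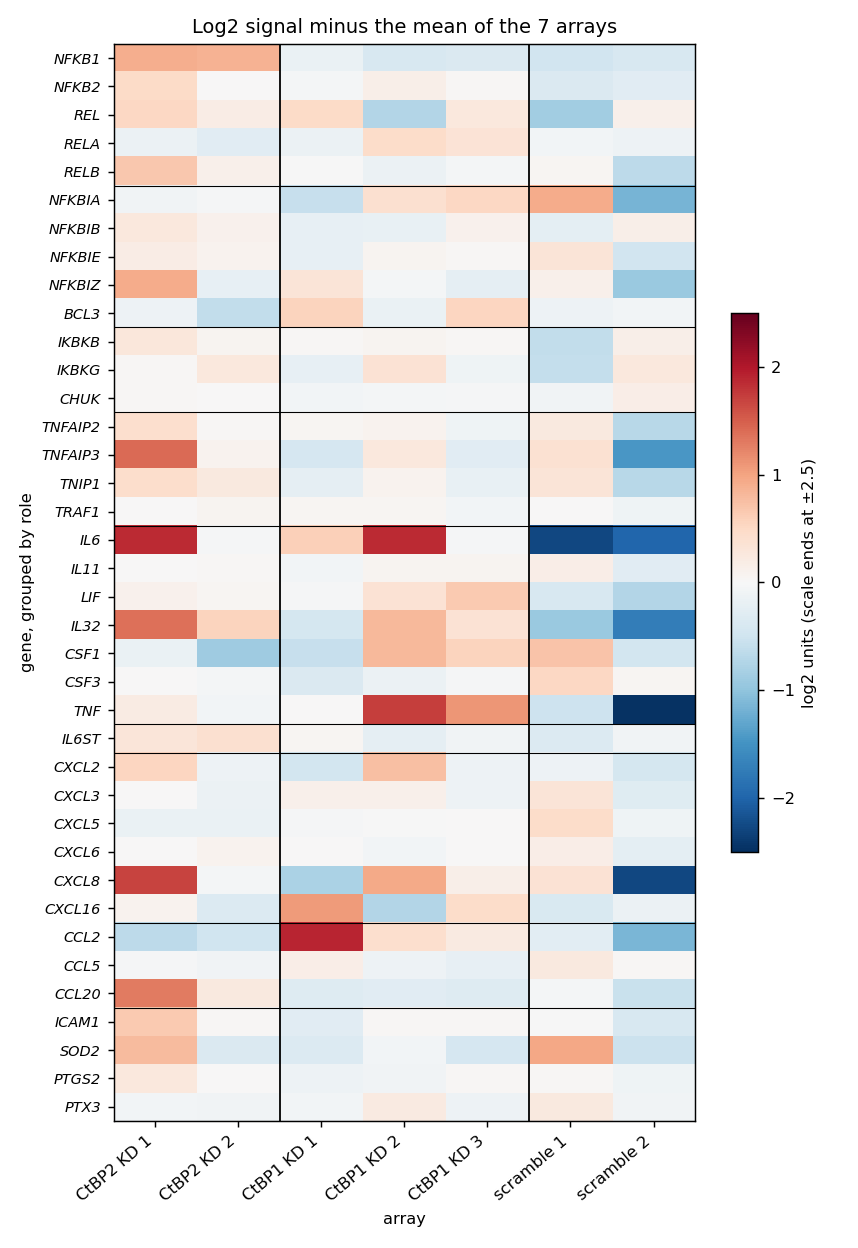
Log2 signal of each of the 38 genes minus its mean over the 7 arrays (colour, log2 units), with genes by role in rows and arrays in columns, CtBP2 knockdown (KD) first and scramble control last. The rows of IL6, IL32 and TNF are blue on both scramble arrays. The rows of NFKBIA, TNFAIP3, CXCL8 and SOD2 are red on scramble control 1 and blue on scramble control 2.

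The direct comparison of CtBP2 knockdown with the arrays labelled CtBP1 knockdown asks where the knockdowns differ. Its differences use no scramble array, but the scramble arrays enter the spread behind its SE and p. NFKB1, CCL20 and IL6ST were higher in CtBP2 knockdown, and CCL2 was lower, each with groups that did not overlap. Limma called 0 of the 38 genes and 0.0% of all genes, and at an unadjusted p under 0.05 it had 3 higher and 2 lower, where 5.31% and 2.46% of all genes were. NFKB1 differed by 1.20 ± 0.12 (adjusted p = 0.129, limma), CCL20 by 1.08 ± 0.33 (adjusted p = 0.484, and 0.55 as the difference without CtBP2 knockdown array 1) and IL6ST by 0.43 ± 0.14 (adjusted p = 0.524). CCL2 differed by -1.43 ± 0.55 and BCL3, whose groups overlapped on 6.18 and 6.22, by -0.68 ± 0.27. With array weights NFKB1 passed, at an adjusted p of 0.0155 (limma), and over all alternatives its adjusted p ran from 0.0155 to 1. RELA, RELB and ICAM1 followed at -0.43 ± 0.20, 0.47 ± 0.26 and 0.42 ± 0.24. IL6 differed by 0.11 ± 0.72, so the spread within each knockdown was far wider than the difference between them. The groups did not overlap for 8 genes higher and 2 lower, against 15.8% and 16.2% of all genes. A difference of 1 or more was reached upwards by 2 of the 38, against 1.36% of all genes, and downwards by 1, against 0.702%. Of the 38 differences, 27 were above 0, against 46.8% of all genes.

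Several cytokine, chemokine and feedback genes differed widely between arrays of 1 group. Between the CtBP2 knockdown arrays, 6 of the 38 genes were higher by 1 log2 unit or more on array 1, against 0.362% of all genes, and 0 were lower by as much, against 0.0724%. They were IL6 (by 1.90), CXCL8 (1.75), TNFAIP3 (1.32), SOD2 (1.15), NFKBIZ (1.13) and CCL20 (1.06). IL6 had rank 3 and CXCL8 rank 7 of 17958 genes in this difference. Between the scramble arrays, 8 of the 38 were higher by as much on scramble control 1, against 2.83% of all genes, and 0 were lower, against 13.0%. They were CXCL8 (2.64), NFKBIA (2.10), TNF (1.95), TNFAIP3 (1.83), SOD2 (1.503), CSF1 (1.17), NFKBIZ (1.05) and TNIP1 (1.01), and IL6 was not among them (-0.29). CXCL8, NFKBIZ, SOD2 and TNFAIP3 were in both sets. Among the arrays labelled CtBP1 knockdown, 10 of the 38 ranged over 1 log2 unit or more, against 6.5% of all genes, and in scramble control 8 did, against 15.9%. No test was made of these differences between arrays of 1 group.

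**Figure D4:**
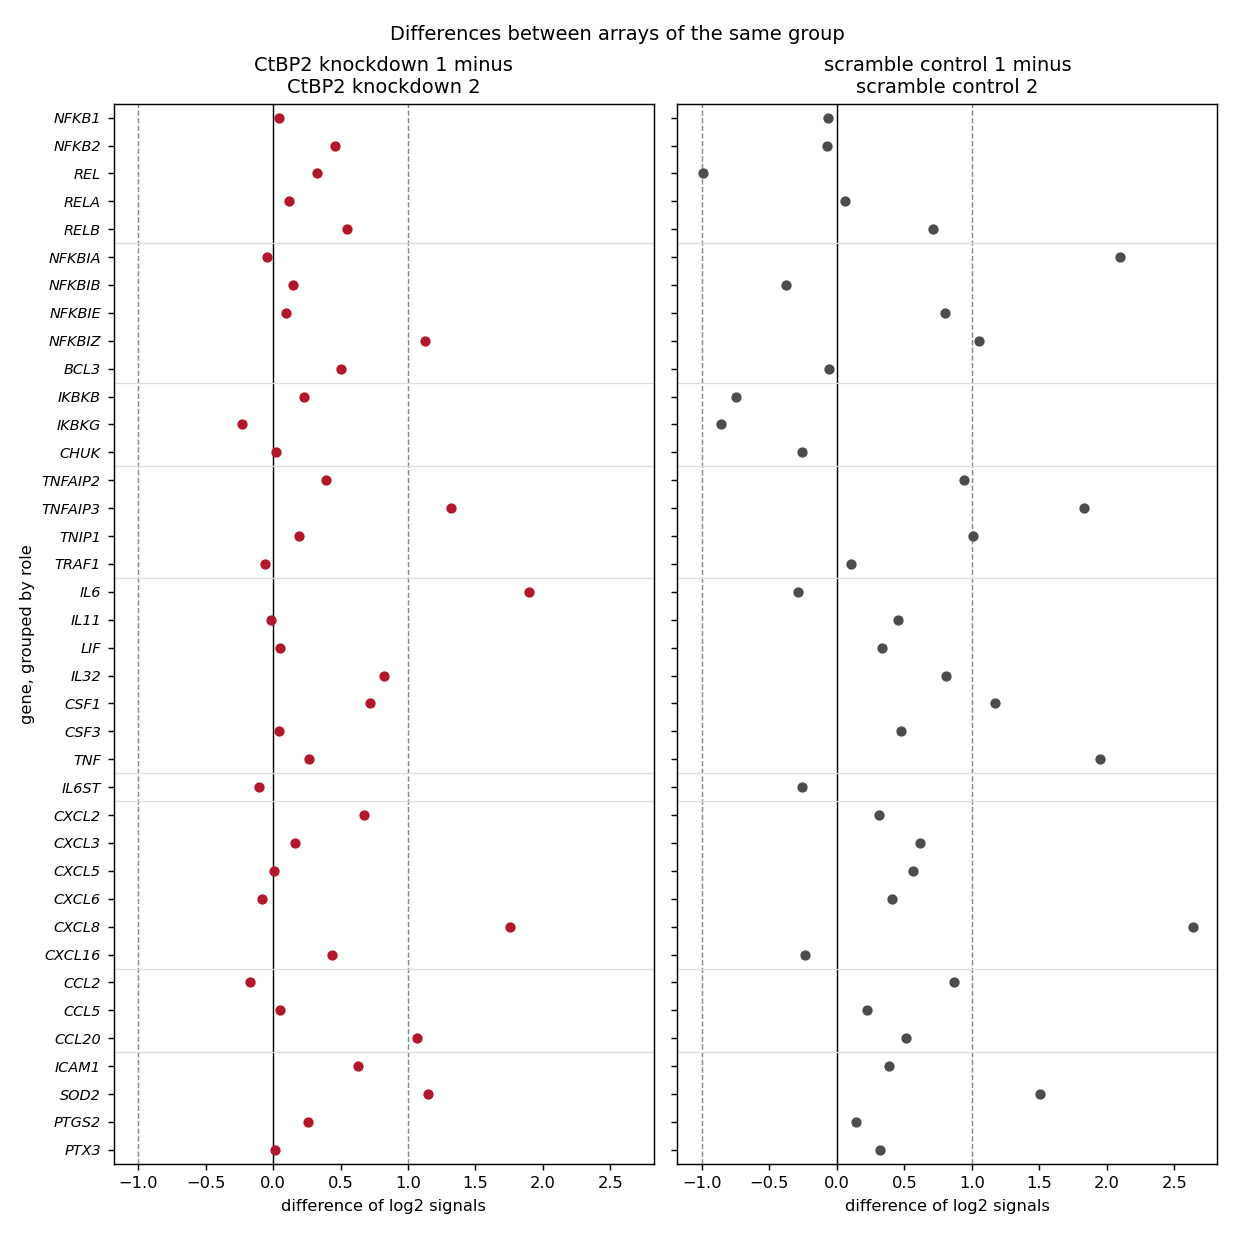
Difference between the 2 arrays of the same group for each of the 38 genes (horizontal axis, log2 units), CtBP2 knockdown 1 minus 2 on the left and scramble control 1 minus 2 on the right. Dashed lines mark 1 log2 unit either way. Points past the line on the right number 6 and 8, and none lies past the line on the left.

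Genes around this list gave the setting, in lists also chosen with earlier results of these data known. Of 25 measured genes of receptors and relays upstream of NF-kB, 0 passed the test in either knockdown. At an unadjusted p under 0.05, 5 were higher and 1 lower for CtBP2 knockdown, where 7.19% and 2.98% of all genes were. For the arrays labelled CtBP1 knockdown 3 were higher and 0 lower, where 2.87% and 1.92% of all genes were. The median differences were 0.34 and 0.14, against -0.02 and -0.0047 over all genes. IL1R1, the signalling receptor of interleukin-1, had 6.09 and 5.80 in CtBP2 knockdown, 4.93, 4.17 and 4.23 in the arrays labelled CtBP1 knockdown, and 2.85 and 2.69 in scramble control. The next by p for CtBP2 knockdown were the ubiquitin ligase BIRC2 (0.64 ± 0.17), the kinase IRAK1 (0.99 ± 0.30) and the linear-chain deubiquitinase OTULIN (0.45 ± 0.14), with adjusted p of 0.357 to 0.420 (limma). For the arrays labelled CtBP1 knockdown they were the receptors LTBR (0.45 ± 0.17) and CD40 (0.45 ± 0.18) and the adaptor TRAF3 (0.51 ± 0.25).

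Of 29 measured NF-kB targets outside the list, 0 passed. At an unadjusted p under 0.05, 5 were higher and 0 lower for CtBP2 knockdown, against 7.19% and 2.98% of all genes. For the arrays labelled CtBP1 knockdown 4 were higher and 0 lower, against 2.87% and 1.92% of all genes. The median differences were 0.19 and 0.05, against -0.02 and -0.0047 over all genes. The syndecan SDC4 had 6.73 and 6.92 in CtBP2 knockdown, 6.37, 6.40 and 6.45 in the arrays labelled CtBP1 knockdown, and 5.92 and 5.99 in scramble control. Both knockdowns were above both controls without overlap. For CtBP2 knockdown F3, the tissue factor gene, differed by 1.30 ± 0.28, CFLAR, an inhibitor of death receptor signalling, by 0.49 ± 0.11 and IL1B by 3.08 ± 0.71. IL1B had 6.70 and 5.23 in CtBP2 knockdown, 2.48, 2.97 and 1.74 in the arrays labelled CtBP1 knockdown, and 3.62 and 2.14 in scramble control. For the arrays labelled CtBP1 knockdown NFKBID, a nuclear regulator related to NFKBIZ, differed by 0.73 ± 0.20, PLAU, the urokinase gene, by 1.25 ± 0.41 and CFLAR by 0.25 ± 0.10.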

How the data were processed

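The authors' deposited values are log2 signals of 33297 transcript clusters on 7 arrays, for which the submitters' processing notes name Expression Console and RMA. Versions and the genome build used for the arrays are not given in the sources used here. Groups and replicate numbers come from the sample titles. Of the clusters, 19181 had exactly 1 symbol, 2055 several and 12061 none. Symbols were updated through Entrez identifiers with RefSeq genes of GRCh38.p14 for 17930 of 17958 genes. The brightest cluster stood for each of the 895 genes with several.

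Group means of the 3 groups were estimated by lmFit and default eBayes (limma 3.58.1, R 4.3.3) from all 7 arrays and 17958 genes, with 4 residual degrees of freedom. Two-sided p-values were adjusted over all genes of a comparison (Benjamini-Hochberg, threshold 0.05). The fit was tested on simulated data. The number of arrays limits the precision. By the naming rule, values on every array are given for the 8 members with the smallest unadjusted p in each comparison and for CTBP1 and CTBP2. Each surrounding list gives up to 4 genes by p, and IL1R1. Array values of other members were added where they show the spread between arrays. The members and lists were chosen with earlier results of these data known. The 19 alternatives cover normalization, filters, clusters, eBayes settings, weights, a block and leaving out arrays. Figures were drawn with matplotlib 3.10.9.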

Additional observations from a re-analysis of the deposited data

How the results depend on the processing

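With 2 or 3 arrays a group, no list gene passed under most settings. The number of genes called against scramble varied most with the scramble array kept, and the number called between the knockdowns with array weights. Leaving out each array in turn, genes called ran from 0 to 3262 for labelled CtBP1 knockdown over scramble, from 0 to 3952 for CtBP2 knockdown against scramble (1 with all arrays) and stayed at 0 between the knockdowns. List genes called ran from 0 to 3, from 0 to 4 and at 0. These calls of list genes all came without scramble control 2 and leave scramble control 1 as the lone control, assumed to vary like the other groups: CSF3, CXCL5 and IKBKB for the arrays labelled CtBP1 knockdown, and CXCL5, IKBKB, IL6ST and NFKB1 for CtBP2 knockdown. In the same order of comparisons, list genes at an unadjusted p under 0.05 ran from 5 to 12, 4 to 15 and 2 to 6, list genes with separated groups from 8 to 29, 15 to 32 and 10 to 23, and the list's median from -0.0798 to 0.33, 0.18 to 0.48 and 0.02 to 0.23. Fewer arrays make separation easier by construction. Shares of all genes with an array left out are not given here, so these counts of list genes cannot be set against all genes. With all arrays, 6.76% of all genes were apart upwards and 7.59% downwards for labelled CtBP1 knockdown over scramble. For CtBP2 knockdown against scramble 19.3% and 21.7% were, and between the knockdowns 15.8% and 16.2%.

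For CtBP2 knockdown against scramble, 0 genes were called with robust eBayes, array weights, the replicate block or only the groups compared. List genes at an unadjusted p under 0.05 (8 in the report) were 5 with renewed quantile normalization, 4 without the dimmer 50% of genes, 3 with array weights and 5 with only the groups compared. The list's median was 0.47 without the dimmest 25% of genes and 0.52 without the dimmer 50%, which leave fewer members. With labelled CtBP1 knockdown over scramble, the count (6 in the report) was 2 with array weights and 3 with the replicate block, and the median was 0.34 without the dimmer 50%. Between the knockdowns, genes called were 7 with renewed quantile normalization and 272 with array weights, which called 1 list gene, NFKB1. The count at an unadjusted p under 0.05 (5 in the report) was 2 without the dimmer 50%, and 3 with a mean-variance trend, with the replicate block and without genes that had tied values, an alternative added after the ties were seen. The cause of these shifts was not tested.

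Deviations of same-numbered arrays from their group means correlated across genes at -0.354 to 0.098. In a group of 2 arrays the 2 deviations mirror each other, so this check cannot decide whether arrays were paired by number. LIF turned to -0.62 (labelled CtBP1 knockdown) and -0.65 (CtBP2 knockdown) with its most variable cluster, and to -0.0038 for CtBP2 knockdown with the mean of both. CTBP1, at -0.25 against scramble on the arrays labelled CtBP1 knockdown, ran from -0.5853 without scramble control 1 to 0.0928 without scramble control 2 and 0.0930 without array 1 of that group.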

Other observations

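Receptors for the cytokines and chemokines of the list gave no call, and none of the 14 measured passed the test in any of the 3 comparisons. Of their differences from scramble, 11 were below 0 in each knockdown, as were 9430 (CtBP2 knockdown) and 9127 (labelled CtBP1 knockdown) of 17958 genes, and both counts share the scramble arrays. The receptors' median deviation from each gene's mean was -0.04 to 0.02 on the knockdown arrays, 0.16 on scramble control 1 and 0.0061 on scramble control 2. Most receptors were dim, with a median level of 1.82 to 2.12 per array, against 3.18 to 3.29 over all genes. The lower quartile of all genes was 2.32 on scramble control 1 and at most 2.11 on the other arrays, and its part here was not tested. IL6R, the binding chain for IL6, had 3.06 and 3.26 with CtBP2 knockdown, 3.62, 3.80 and 3.27 in the arrays labelled CtBP1 knockdown, and 2.79 and 3.25 in scramble control. The difference was 0.55 ± 0.22 for the arrays labelled CtBP1 knockdown (adjusted p = 0.734, limma). LIFR, the binding chain for LIF, had 4.93 and 5.58 with CtBP2 knockdown, 4.19, 4.44 and 4.85 in the arrays labelled CtBP1 knockdown, and 4.56 and 5.81 in scramble control. CXCR1, a receptor of CXCL8, stayed between 1.70 and 1.96 on all arrays.

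Some deposited values were identical on several arrays. Of the 38 list genes, 11 (28.9%) had a value shared by 2 or more arrays, as did 7180 of all 17958 genes. IL6 had 5.3752 both on CtBP2 knockdown array 2 and on array 3 labelled CtBP1 knockdown. TNFAIP8, an NF-kB target that limits cell death, was listed at 2.47 on all 7 arrays and was the one gene of 17958 with a single value throughout.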
